A study of Mus musculus with 4 samples.

Results

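The genes followed were *Lars2*, *Gm15564*, *Camk1d*, *Cdk8*, *Filip1l* and *Jarid2*, which were picked as genes whose read counts can include reads from sequence that resembles ribosomal RNA (rRNA). These 6 genes are among the 47729 rows of the count table, and all 6 were among the 12536 rows with enough counts to be tested. *Lars2* was selected on these same libraries, for its difference between the genotypes, so its own levels are a description and no test of it is used as support. The other 5 were taken by name, with earlier results of these data known. The libraries were made from total RNA of CD25+YFP+ regulatory T (Treg) cells sorted from female mice on a C57BL/6 background, 2 libraries labelled WT (Tfrc +/+ Foxp3 YFP-Cre/+) and 2 labelled TfR1-deficient (Tfrc fl/fl Foxp3 YFP-Cre/+, hereafter the fl/fl-labelled libraries). Both groups carried the YFP-Cre allele in the *Foxp3* locus on 1 of the 2 X chromosomes, so the sorted YFP+ cells are those that made the recombinase, which cuts out the floxed part of *Tfrc*, the gene of transferrin receptor 1 (TfR1). The organ on the labels is the spleen, to which the paper adds lymph nodes, and a general statement of the study, which leaves out its Tfrc cKO line, has its mice as age-matched young adults, with no age given library by library. Total counts ran from 10841939 to 17278448 per library.

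The ribosome is built on rRNA, which makes up most of the RNA of a cell. A library made from total RNA keeps only as much rRNA as its priming and depletion let through. The paper's methods call the present ones mRNA libraries, made with a low-input RNA kit. A stretch of the 3′ untranslated region of *Lars2* is known in the mouse as an insertion that resembles the large ribosomal RNA, and reads of such a stretch can be assigned to *Lars2* without coming from its messenger RNA. *Lars2* encodes the mitochondrial leucyl-tRNA synthetase, which charges tRNA with leucine for translation inside mitochondria. *Gm15564* is a non-coding gene, *Camk1d* encodes a calcium/calmodulin-dependent kinase, *Cdk8* the kinase of the Mediator complex, *Filip1l* a relative of a filamin-interacting protein, and *Jarid2* an accessory subunit of the Polycomb repressive complex PRC2.

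The sequence was examined first, in the NCBIM37 (mm9) genome with the GENCODE vM1 annotation. *Lars2* (ENSMUSG00000035202) lies on the plus strand at chr9:123276058-123371782, and its last exon of 1166 bases holds 989 bases of 3′ untranslated region. A segment of 399 bases within that untranslated region, chr9:123370909-123371307, had 20 copies elsewhere in the genome, which aligned over 83 to 244 bases at 80.1% to 98.8% identity. Of these copies, 11 lay in an annotated gene and 2 lay over an annotated exon. One of the 2 exons belonged to *Gm15564* (ENSMUSG00000086324, minus strand, chr16:35966838-35983316). The copy there aligned over 167 bases at 97.6% identity and covered a whole 71-base exon, chr16:35981811-35981881, which matched *Lars2* at 98.6%. *Jarid2* (ENSMUSG00000038518, plus strand, chr13:44824843-45017012) held a copy of 185 bases at 81.6% identity, in an intron and on the opposite strand. Apart from this copy, an exon of *Gm15564* matched a 2750-base exon of *Jarid2* over 155 bases at 68.4% identity.

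The stretch common to the *Lars2* untranslated region and the *Gm15564* exon is shown in 2 overlapping windows of the segment, beside the same bases of the *Jarid2* intron. Capitals mark bases that differ from *Lars2*, and each window reads 5′ to 3′ along the *Lars2* strand. The first window spans bases 571 to 600 of the last *Lars2* exon, and the second bases 592 to 621.
Lars2, chr9:123371187-123371216, plus strand: gttcacccactaatagggaacgtgagctgg
Gm15564, chr16:35981832-35981861, minus strand: gttcacccactaatagggaacgtgagctgg
Jarid2 intron, chr13:44844927-44844956, minus strand: ACtcaccAaTtaatagggaaTgtgCgctgg
Lars2, chr9:123371208-123371237, plus strand: gtgagctgggattagaccgtcgtgagacag
Gm15564, chr16:35981811-35981840, minus strand: gtgagctgggTttagaccgtcgtgagacag
Jarid2 intron, chr13:44844906-44844935, minus strand: gtgCgctgggTttagaccACAgtgagacag
*Gm15564* was identical to *Lars2* in the first window and differed at 1 base in the second, whereas the *Jarid2* intron differed at 6 and 5 bases. The exonic copy is therefore nearly letter for letter the *Lars2* sequence, and the intronic one is more diverged.

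**Figure D1:**
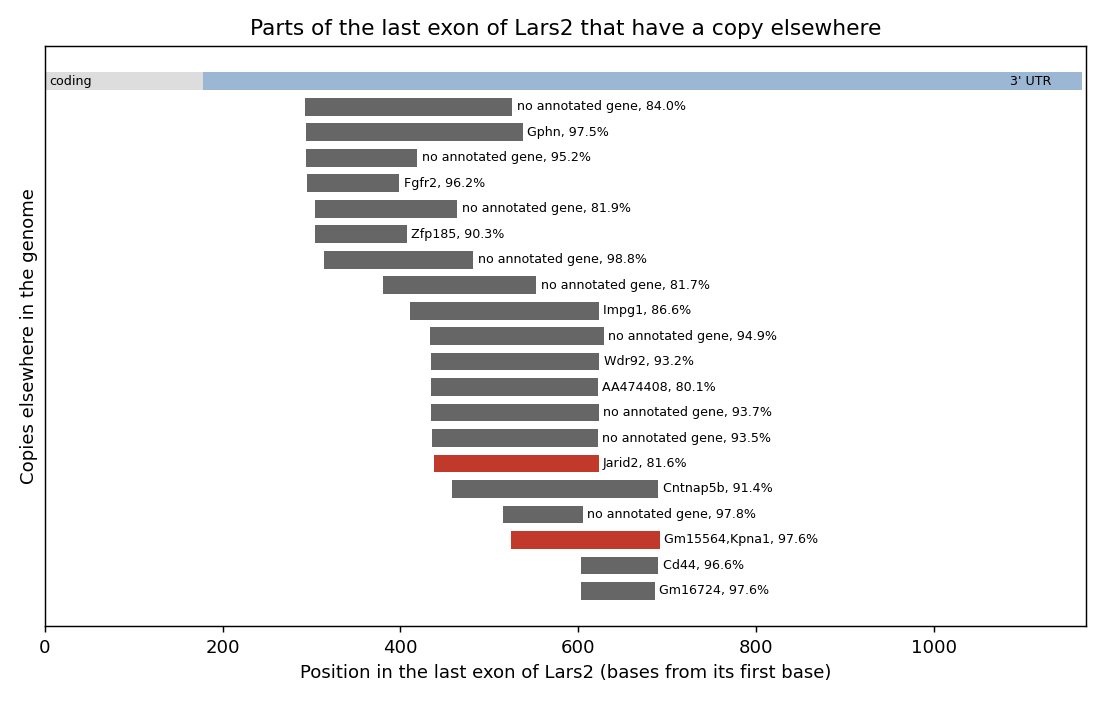
Map of the last exon of *Lars2* (top bar, coding part grey and 3′ untranslated region blue; x axis in bases from the first base of the exon) with the 20 copies found elsewhere in the genome as bars over the part they match, each named by its annotated gene and its identity. All copies fall between bases 293 and 691, and the red bars are those in *Gm15564* and *Jarid2*.

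No copy of the segment was found in the gene bodies of the other 3 genes at an E value of up to 0.001. These were *Camk1d* (ENSMUSG00000039145, minus strand, chr2:5214503-5635561), *Cdk8* (ENSMUSG00000029635, plus strand, chr5:147042806-147114450) and *Filip1l* (ENSMUSG00000043336, plus strand, chr16:57353206-57573239). A block of 2110 bases around the amplicon of the study's 18S rRNA primers, chr17:39983551-39985660, had 0 matches in the 6 gene bodies at the same limit. The mitochondrial rRNA gene *mt-Rnr2* matched an intron of *Camk1d* over 71 bases at 73.2% identity and an intron of *Filip1l* over 41 bases at 85.4%, and neither match reached an exon. Only *Lars2*, *Gm15564* and *Jarid2* thus carried the shared segment in this build. For *Camk1d*, *Cdk8* and *Filip1l* the label of an rRNA-like gene was not borne out by the sequences compared, among which the 28S rRNA was not included.

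The targeted gene was looked at before any difference. *Tfrc* stood at 50.8 and 54.1 CPM (counts relative to library size, with sizes scaled by the TMM method) in WT and at 56.1 and 48.3 CPM in the fl/fl-labelled libraries, so its count over the whole gene did not show the deletion. A count over all exons does not separate the floxed exons, and the groups are named here as the labels give them. *Foxp3* stood at 194 and 130 CPM in WT and at 122 and 114 CPM in the fl/fl-labelled ones. All 9 Treg cell markers were measured, with a summed level of 4679 to 6187 CPM. Of these, 5 were lower in both fl/fl-labelled libraries than in both WT libraries, beside 18.9% of all genes tested. The 20 macrophage and myeloid markers set the libraries apart in another way, since they summed to 1219 and 100 CPM in WT libraries 1 and 2 and to 73.4 and 3660 CPM in fl/fl-labelled libraries 1 and 2. Of the 18 myeloid markers tested, 18 had a log2 fold change above 0 and 0 had groups apart. *Mertk* and *Fcgr1* had 0 counts in WT library 2, and *Vsig4* had 0 counts in all libraries but fl/fl-labelled library 2. In bulk libraries, fewer cells of a type and less RNA per cell cannot be told apart.

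*Lars2* was the most abundant of the 6 genes in every library. It had 15384 and 17862 counts in WT and 44057 and 37370 counts in the fl/fl-labelled libraries, which corresponded to 1259, 1674, 2539 and 2728 CPM. Both fl/fl-labelled libraries were above both WT libraries, and *Lars2* ranked 69 and 46 among all rows by count in WT and 20 and 19 in the others. The mean went from 1467 ± 293 CPM to 2634 ± 134 CPM (SD, n = 2 each), a 1.80-fold difference (log2 fold change 0.84, SE 0.18). Since *Lars2* was chosen for this difference, these values describe it and no test is attached.

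*Gm15564* followed *Lars2* most closely among the 6. It had 82.5 and 114 CPM in WT and 154 and 174 CPM in the fl/fl-labelled libraries. The groups did not overlap, and WT library 1 was the lowest and fl/fl-labelled library 2 the highest, the same order as for *Lars2*. Its log2 fold change was 0.75 (SE 0.20), with an adjusted p of 0.911 in edgeR's quasi-likelihood test.

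*Filip1l* had 31.5 and 31.5 CPM in WT and 45.4 and 45.6 CPM in the fl/fl-labelled libraries. The libraries of a genotype were nearly equal and the groups were apart, with a log2 fold change of 0.53 (SE 0.16) and an adjusted p of 0.911 in the same edgeR test. *Camk1d* had 23.4 and 21.7 CPM in WT and 29.4 and 34.2 CPM in the fl/fl-labelled ones. Its groups did not overlap either, at a log2 fold change of 0.50 (SE 0.20) and an adjusted p of 0.911 in edgeR. *Cdk8*, the least abundant of the 6, had 7.86 and 8.06 CPM in WT and 11.4 and 9.34 CPM in the fl/fl-labelled ones. These values rested on 96, 86, 197 and 128 counts, and the exact Poisson 95% intervals of the counts in WT library 1 (77.8 to 117) and fl/fl-labelled library 2 (107 to 152) overlapped, intervals that cover counting error only. Its log2 fold change was 0.38 (SE 0.29), with an adjusted p of 0.950 in edgeR.

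*Jarid2* did not go with the others. It had 132 and 167 CPM in WT and 151 and 88.0 CPM in the fl/fl-labelled libraries. The groups overlapped, fl/fl-labelled library 2 was the lowest of the 4, and the log2 fold change was -0.32 (SE 0.29; adjusted p of 0.952 in edgeR). Without fl/fl-labelled library 2 the log2 fold change was 0.01.

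**Figure D2:**
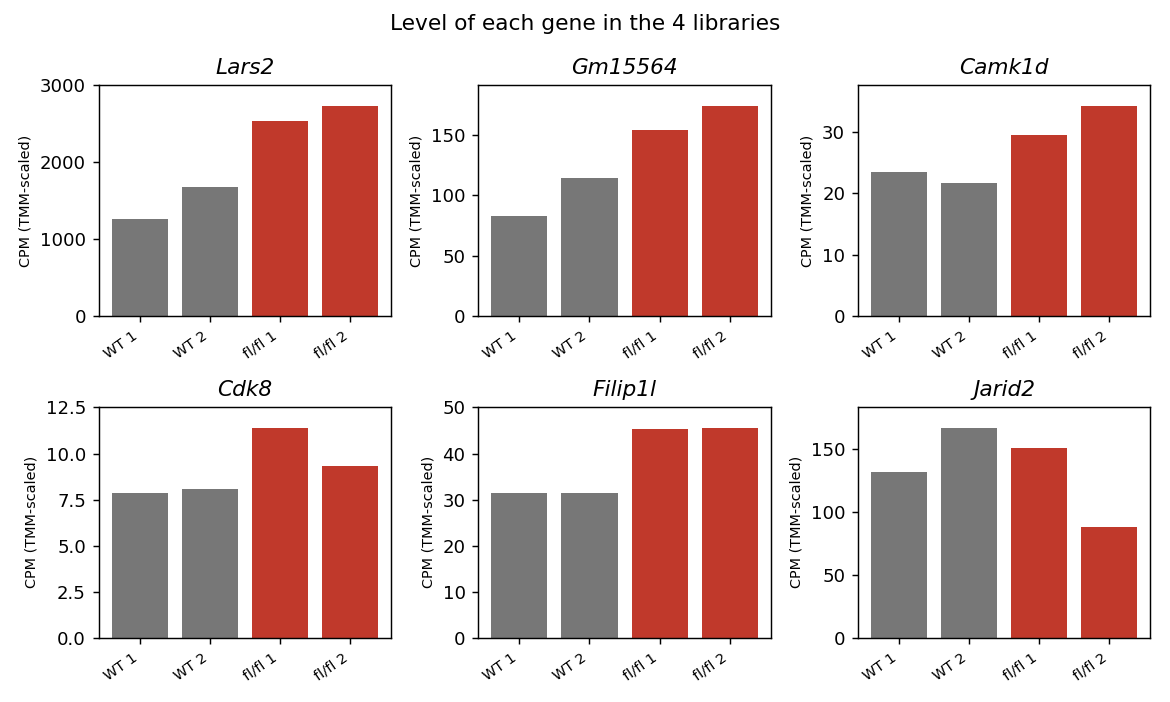
Level of each of the 6 genes in CPM (TMM-scaled, bars from 0, each panel with its own y axis) in the 2 WT libraries (grey) and the 2 fl/fl-labelled libraries (red), 1 bar per library. The red bars exceed both grey bars in every panel except that of *Jarid2*, where the groups overlap.

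With *Lars2* included, 5 of the 6 genes were higher in both fl/fl-labelled libraries than in both WT libraries, and of the 5 genes taken by name the count was 4. Among all 12536 genes tested, 16.0% were above in both fl/fl-labelled libraries and 18.9% were below in both. The 6 genes were chosen with earlier results of these data known, and *Gm15564* holds an exon nearly identical to part of *Lars2*. These counts, and the p-values of the 6 genes given below, are therefore a description, and no enrichment is read from them. With 2 libraries against 2, the smallest p-value that an exact two-sided permutation test allows is 0.333, so no single gene could pass a threshold of 0.05 by that test. In edgeR, 0% of the genes tested (0 of 12536) passed an adjusted p of 0.05 and a log2 fold change of 0.5 or more in size, and none of the 6 genes did. At an unadjusted p under 0.05 with the same minimum, 1.60% of all genes were higher and 2.48% lower in the fl/fl-labelled libraries. *Gm15564* (unadjusted p = 0.013, edgeR) and *Filip1l* (0.019) were among the 200 higher genes, as was *Lars2* by its selection, and *Camk1d* (0.054), *Cdk8* (0.24) and *Jarid2* (0.32) were in neither set. DESeq2's Wald test called 7 genes higher (0.0693% of the genes with an adjusted p) and 37 lower. *Lars2* was 1 of the 7, which is how it was selected, and *Gm15564* had an adjusted p of 0.20 in DESeq2. For the other 4 genes DESeq2 gave adjusted p-values of 0.59 (*Filip1l*), 0.91 (*Camk1d*), 1.0 (*Cdk8*) and 1.0 (*Jarid2*). Labels give the replicates as separate samples, and nothing beyond that ties a library to an animal, so the p-values measure the spread between these libraries.

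The size of the step between genotypes varied with the library pair. On the log2 CPM scale, *Lars2* differed by 0.60 between the 2 libraries low in myeloid markers (fl/fl-labelled 1 minus WT 2) and by 1.12 between the 2 high in them (fl/fl-labelled 2 minus WT 1). *Gm15564* gave 0.44 and 1.08 in the same pairs, *Camk1d* 0.44 and 0.54, *Cdk8* 0.49 and 0.25, and *Filip1l* 0.52 and 0.53. All 5 were thus higher in the fl/fl-labelled library within either pair, and the step of *Lars2* and *Gm15564* was larger in the pair rich in myeloid markers, whereas that of *Filip1l* was nearly equal in both. The part of myeloid cells in these steps was not tested. *Jarid2* gave -0.14 and -0.59. These pairs were chosen after the values were seen and hold 1 library per genotype, so they carry no test.

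**Figure D3:**
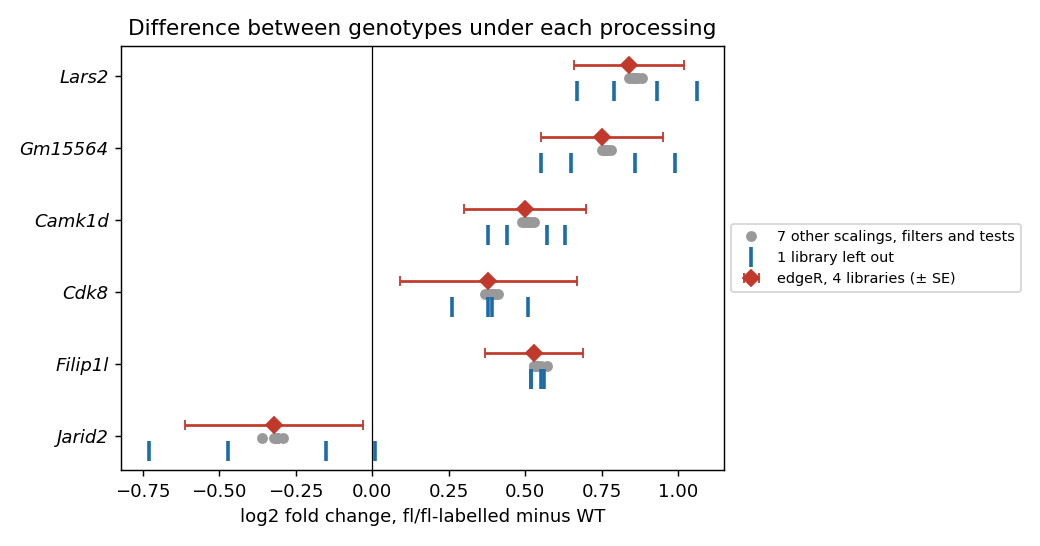
Log2 fold change of each gene (x axis, fl/fl-labelled minus WT) from edgeR with all 4 libraries (red diamonds, bars ± SE), under 7 other scalings, filters and tests (grey circles) and with 1 library left out (blue ticks). Every value of *Lars2*, *Gm15564*, *Camk1d*, *Cdk8* and *Filip1l* lies above 0, and *Jarid2* runs from -0.73 to 0.01 when a library is left out.

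Whether the genes kept a fixed proportion to *Lars2* was read from the counts. *Gm15564* had 6.55% and 6.78% of the *Lars2* count in WT and 6.08% and 6.40% in the fl/fl-labelled libraries, a spread of 1.11-fold between the highest and the lowest. As a share of the reads of both genes together, *Gm15564* took 6.15% (exact Clopper-Pearson 95% interval 5.79 to 6.53) and 6.35% (6.01 to 6.70) in WT, and 5.73% (5.52 to 5.95) and 6.01% (5.78 to 6.25) in the others. The share was slightly lower in both fl/fl-labelled libraries, and the intervals overlapped for every pair of libraries across the groups except fl/fl-labelled library 1 and WT library 2. These intervals cover counting error only and take amplified reads as independent, so they do not test a difference between the groups. The proportion was looser for the other genes followed, both those without a copy of the segment and *Jarid2*, which holds one in an intron. *Filip1l* ran from 1.67% to 2.50% of the *Lars2* count (1.50-fold), *Camk1d* from 1.16% to 1.86% (1.60-fold) and *Cdk8* from 0.343% to 0.624% (1.82-fold), each highest in WT library 1. *Jarid2* ran from 3.22% to 10.5% (3.26-fold). Reads that lie wholly in bases where *Lars2* and *Gm15564* are identical cannot be placed in one of them by sequence, while reads that cross a differing base or the flanks can. How such reads were counted is not given in the sources used here, and their part in the difference was not tested.

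**Figure D4:**
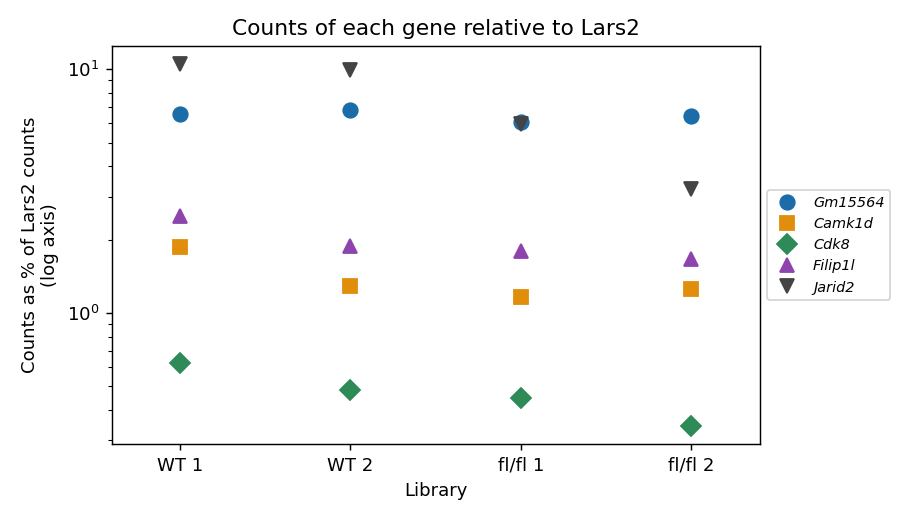
Counts of the other 5 genes as a percentage of the *Lars2* count (y axis on a log scale) in each of the 4 libraries (x axis), 1 point per gene and library. *Gm15564* stays between 6.08% and 6.78%, while *Jarid2* runs from 10.5% down to 3.22%.

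The same question was asked of all genes by the distance of their library pattern from that of *Lars2*, taken as the Euclidean distance between log2 CPM values centred on each gene's mean over the 4 libraries. *Gm15564* ranked 2 of 12535 genes (distance 0.115), behind *Sbk1*, which encodes a serine/threonine kinase (distance 0.0811) and had 8.68, 10.9, 16.4 and 18.4 CPM. *Ankrd13b* followed at rank 3, and ranks 4 and 5 were 2 rows without a symbol in the tables used here (ENSMUSG00000104548 and ENSMUSG00000107549), which had equal values at 0.409, 0.562, 0.980 and 1.17 CPM. *Filip1l* ranked 276, *Camk1d* 471, *Cdk8* 865 and *Jarid2* 9911 by the same distance. Over 4 libraries this measure orders the genes and tests nothing.

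Apart from *Gm15564*, none of the tested genes over a copy of the *Lars2* segment was higher in both fl/fl-labelled libraries. Of 12 annotated genes over the 11 copies, 7 were tested, and 5 of these were neither *Gm15564* nor *Jarid2*. Both fl/fl-labelled libraries were above both WT libraries in 0 of the 5 and below in 3, beside 16.0% and 18.9% of all genes tested. The median log2 fold change was -0.21, beside 0.01 over all genes tested. Of the 5, only *AA474408* had an exon over its copy in this annotation. By these exon bounds, counts over exons would not include the copy in the others. The annotation behind the counts is not given, so whether their values hold reads of the segment cannot be told. *AA474408*, the other gene with an exon over a copy (80.1% identity), had 5.89 and 3.09 CPM in WT and 4.15 and 3.65 CPM in the fl/fl-labelled ones, so its groups overlapped. *Gphn*, which encodes gephyrin and carries a copy of 244 bases at 97.5% identity in an intron, had 9.25 and 8.44 CPM against 10.3 and 8.83 CPM. *Kpna1*, an importin gene that spans the *Gm15564* copy on the opposite strand without sharing exonic bases with *Gm15564*, had 164 and 152 CPM against 149 and 114 CPM, and *Cd44*, an adhesion receptor of activated T cells, had 132 and 117 CPM against 65.4 and 99.2 CPM. *Wdr92* had 37.5 and 41.1 CPM against 35.7 and 37.2 CPM.

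Of the rRNA rows looked up, only 2, both mitochondrial, had enough counts to be tested, and these did not follow *Lars2*. Nuclear 18S or 28S-like rows were not among the rows by name, so nuclear rRNA could not be set beside *Lars2*. The 268 rows annotated as rRNA genes in GENCODE vM1 summed to 22 to 45 counts per library, 2.03 to 2.68 CPM of all counts, and none was tested. Of 19 rRNA-like and other structural RNA genes that were looked up, 4 had a row in the table under that name, and the others are not analysed here. Among the 4, the 5S rRNA genes *n-R5s1* and *n-R5s2* had 0 counts in every library. The mitochondrial small rRNA gene *mt-Rnr1* had 172 and 209 CPM in WT and 144 and 210 CPM in the fl/fl-labelled libraries, and the large one, *mt-Rnr2*, had 3262 and 4833 CPM against 3924 and 3167 CPM. For both the groups overlapped, with log2 fold changes of -0.11 and -0.19, so the order of the libraries in *Lars2* was not that of the mitochondrial rRNA.

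Per kilobase of exon, *Lars2* stood apart from the enzymes of its own family. It had 378 CPM per kilobase in WT and 679 in the fl/fl-labelled libraries, whereas the other 21 genes of mitochondrial tRNA charging ran from 1.25 to 74.4 CPM per kilobase in the WT libraries (median 7.97) and from 1.51 to 75.3 in the others (median 7.30). The cytosolic leucyl-tRNA synthetase gene *Lars* stood at 31.2 and 32.0 CPM per kilobase. *Gm15564*, at 119 and 200 CPM per kilobase, was also above all of these 21 genes, while *Jarid2* (15.4 and 12.3), *Filip1l* (5.91 and 8.52), *Camk1d* (3.03 and 4.28) and *Cdk8* (2.05 and 2.67) lay within their range. Reads that fall on a short stretch of an exon count towards the whole exon length here.

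In the differences between genotypes, the other 21 genes of mitochondrial tRNA charging had a median log2 fold change of 0.11, beside 0.01 for all genes tested. Both fl/fl-labelled libraries were above both WT libraries in 8 of the 21 and below in 3, beside 16.0% and 18.9% of all genes tested. None of the 21 was among the genes higher at an unadjusted p with the minimum fold change, and 1, *Vars2*, was among those lower. *Vars2* (valine) had 62.5 and 56.8 CPM in WT and 44.0 and 35.7 CPM in the fl/fl-labelled libraries (log2 fold change -0.58, SE 0.18). *Cars2* (cysteine) had a log2 fold change of 0.58 (SE 0.37) on 3.93 and 3.75 CPM against 6.80 and 4.67 CPM. *Lars* had 108 and 134 CPM against 143 and 104 CPM, a log2 fold change of 0.03.

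The partners of the other genes were counted in the same way, again beside 16.0% above and 18.9% below among all genes tested. In the Mediator kinase module, the part of Mediator that *Cdk8* belongs to, 5 other genes were tested and both fl/fl-labelled libraries were above both WT libraries in 0 of them and below in 2, at a median log2 fold change of -0.09. The largest differences there were those of *Med12* (168 and 147 CPM against 129 and 92.1 CPM) and *Ccnc*, the cyclin of *Cdk8* (25.3 and 30.2 CPM against 21.7 and 18.2 CPM). *Cdk19*, the paralogue of *Cdk8*, had 64.3 and 89.8 CPM against 87.9 and 56.3 CPM, with overlapping groups. Of 12 other genes of calmodulin and its kinases tested beside *Camk1d*, 1 was higher and 1 lower by that count. The higher was *Camkk2*, which phosphorylates some of the calmodulin kinases (log2 fold change 0.39, SE 0.20). The lower was *Camk2b* (log2 fold change -0.90, SE 0.29). The median log2 fold change of these 12 was 0.02. Of 10 other PRC2 genes tested beside *Jarid2* (median log2 fold change 0.05), 1 was higher and 3 were lower, among them *Phf1*, an accessory subunit, with 92.1 and 71.4 CPM against 49.7 and 52.6 CPM. The relative of *Filip1l*, *Filip1*, had at most 5 counts in a library and was not tested.

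**Figure D5:**
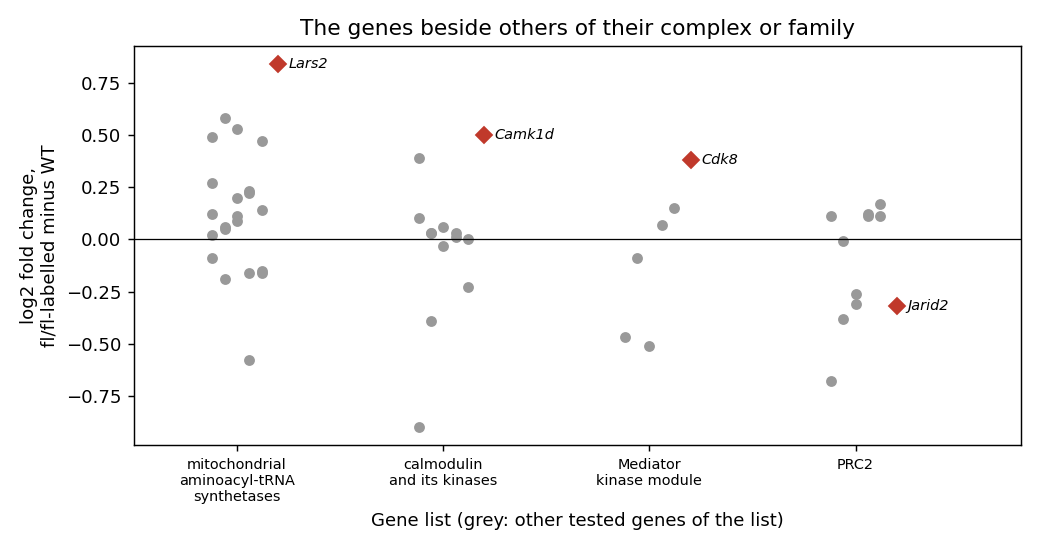
Log2 fold change (y axis, fl/fl-labelled minus WT) of *Lars2*, *Camk1d*, *Cdk8* and *Jarid2* (red diamonds) and of the other tested genes (grey circles) in each list, which are mitochondrial tRNA charging, calmodulin and its kinases, the Mediator kinase module and PRC2. *Lars2* (0.84), *Camk1d* (0.50) and *Cdk8* (0.38) are the highest points of their lists.

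Position in the genome touched 2 of the genes. *Gm15564* lies 3.33 Mb and *Filip1l* 24.7 Mb from *Tfrc* on chromosome 16, and sequence linked to the floxed allele and the genotype cannot be told apart for them, as both come with the same mice. *Lars2*, *Camk1d*, *Cdk8* and *Jarid2* lie on other chromosomes. *2610528E23Rik*, also known as *Cmss1*, overlaps *Filip1l* on the opposite strand and shares no exonic bases with it in this annotation. It had 11.3 and 12.7 CPM in WT and 10.2 and 17.7 CPM in the fl/fl-labelled ones, so its groups overlapped where those of *Filip1l* did not. *Tbc1d23*, looked up as a neighbouring gene, had 20.3 and 29.3 CPM in WT and 53.6 and 73.0 CPM in the fl/fl-labelled ones. Its groups were apart in the direction of *Filip1l*. Whether the difference of *Filip1l* is confined to that gene was not tested. Whether counting used the strand is not given in the sources used here.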

How the data were processed

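The authors deposited raw counts of reads per Ensembl gene for each of the 4 libraries, made from low-input cDNA libraries of total RNA. The paper's methods call these mRNA libraries. Per the labels' processing notes, reads were trimmed with Trim Galore 0.6.7, aligned with STAR 2.7.9a to mm10 and counted with featureCounts; the paper's methods name mm9 instead, and the annotation release, the strand setting and the treatment of reads with several matches are not given in the sources used here. Symbols matched 32799 of 47729 rows. Counts were filtered with filterByExpr, scaled by TMM and compared with edgeR 4.0.16 in R 4.3.3 (quasi-likelihood test, no term but genotype, p-values adjusted by Benjamini-Hochberg over 12536 genes). A prior count of 2 was used for log2 CPM. DESeq2 1.42.0 served as an alternative, and the fits were tested on simulated counts. Sequences were compared with BLAST 2.17.0 in NCBIM37, at E values of up to 1e-30 across the genome and 0.001 in the 6 genes. The genes and lists were chosen with earlier results of these data known. The text names the 6 genes, the 5 genes nearest to *Lars2*, and up to 3 genes of a list by size of change or as members of the same complex. It also names the genes over copies of the *Lars2* segment, *Tfrc*, *Foxp3* and *Tbc1d23*. The genes over the copies, *Mertk*, *Fcgr1*, *Vsig4* and *Tbc1d23* were added after values were seen.

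No block was used, as the methods state none for these libraries. The deviations of same-numbered libraries had a correlation of -0.61, which cannot tell whether the samples were paired. Alternatives were other scalings, filters, tests and minimum fold changes, and leaving out each library.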

Additional observations from a re-analysis of the deposited data

How the results depend on the processing

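The number of the 6 genes that were higher in both fl/fl-labelled libraries was 5 under each of the 3 other scalings. Over the 7 other scalings, filters and tests the log2 fold change of *Lars2* ran from 0.84 to 0.88, of *Gm15564* from 0.75 to 0.78, of *Camk1d* from 0.49 to 0.53, of *Cdk8* from 0.37 to 0.41, of *Filip1l* from 0.53 to 0.57 and of *Jarid2* from -0.36 to -0.29. With 1 library left out the ranges were 0.67 to 1.06, 0.55 to 0.99, 0.38 to 0.63, 0.26 to 0.51, 0.52 to 0.56 and -0.73 to 0.01 in the same order. *Jarid2* turned to 0.01 without fl/fl-labelled replicate 2. With no filter beyond 1 count, edgeR's adjusted p for *Gm15564* was 0.012. It was 0.84 or more in edgeR under the other scalings, the other filter and the replicate block, and 0.20 in DESeq2's Wald test. Without the filter, 167 genes were higher and 95 lower at an adjusted p in edgeR, with 650 higher at an unadjusted p. The cause was not tested. DESeq2's Wald test called 7 higher and 37 lower at an adjusted p. With a minimum log2 fold change of 1, 91 genes were higher and 104 lower at an unadjusted p.

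With the replicate number as a block, 70 genes were higher and 141 lower at an unadjusted p, and 0 passed an adjusted p in edgeR. Whether the numbers pair the samples is not given. With the crossed pairing, chosen after the data were seen, 150 genes were higher and 210 lower at an adjusted p, and 596 and 519 at an unadjusted p. With 1 library left out, 169 to 353 genes were higher and 131 to 382 lower at an unadjusted p, the most higher genes without fl/fl-labelled replicate 1 and the fewest lower without WT replicate 1. Depth limits *Cdk8* most, at 86 to 197 counts per library.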

Other observations

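Further lists were counted beside the 6 genes. Among all genes tested, 16.0% were above in both fl/fl-labelled libraries and 18.9% were below in both. Of 11 mitochondrially encoded mRNAs tested, which rely on the tRNA that *Lars2* charges, both fl/fl-labelled libraries were above both WT libraries in 1 and below in 1, with a median log2 fold change of 0.09. Their summed level was 5271 and 7059 CPM in WT and 6997 and 5740 CPM in the fl/fl-labelled libraries, so the groups overlapped. Of 3 nuclear-retained long non-coding RNA genes tested, 0 had groups apart. *Malat1*, the most abundant of them, had 4341 and 3659 CPM against 2764 and 5481 CPM.

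Among markers of other cells, the summed level of 5 erythroid genes was 17.5 and 114 CPM in WT and 44.0 and 287 CPM in the fl/fl-labelled libraries. The summed level of 7 B cell markers ran from 1122 to 1585 CPM over the 4 libraries, most of it *Ighm* (1270 and 1535 CPM in WT and 1238 and 1077 CPM in the fl/fl-labelled ones), and that of 6 CD8 and NK cell markers from 27.0 to 29.2 CPM. Of 4 B cell markers tested, *Igkc*, an immunoglobulin light chain gene, had 9.66 and 7.50 CPM in WT against 19.1 and 14.5 CPM (log2 fold change 0.97; adjusted p of 0.911 in edgeR). *Eomes*, a transcription factor of cytotoxic lymphocytes, had 1.06 and 1.12 CPM against 2.25 and 2.41 CPM. Both were named after their values were seen, and both had groups apart in the direction of *Lars2*. *Eomes* had 13 and 12 counts in WT and 39 and 33 counts in the fl/fl-labelled libraries. Of the 4 B cell markers tested, both fl/fl-labelled libraries were above both WT libraries in 1 and below in 1, *Ighm*. Of 4 CD8 and NK cell markers tested, 2 were above and 1 was below, beside 16.0% and 18.9% of all genes tested. The 1 below was *Prf1*, with 11.5 and 14.2 CPM in WT against 10.9 and 10.1 CPM, so these markers did not share a direction. The erythroid sum was higher in WT library 2 than in WT library 1, as *Lars2* was, but it was lower in fl/fl-labelled library 1 than in WT library 2, while *Lars2* was higher. The part of these cells in the level of *Lars2* was not tested.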
